A study of Homo sapiens with 12 samples.

Results

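The 2 control arrays of MDA-MB-231 cells were described across all genes, out of 12 arrays in the series. They were chosen by their label as vehicle controls, given 0.1% DMSO for 14 days, and were read without reference to any treated array. MDA-MB-231 is an established human breast cancer line that grows as spindle-shaped, invasive cells, and each culture is a population of that 1 line. Cells were kept in wells for that time, and their RNA was amplified and hybridised to an Illumina HT-12 v4 bead array per replicate. The other 10 arrays, in 5 groups of 2, hold cells given inhibitors of, or an siRNA against, DOT1L, the histone H3 lysine 79 methyltransferase, and are not used here.

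A bead array measures a transcript as the fluorescence of beads that carry 1 probe sequence, and software subtracts the background of the array. Detection is judged against control beads that match no human transcript, and the detection p of a probe falls as fewer of these beads reach its signal. The p-values stand in another order of lines than the signals in the table, so they were assigned by rank within each array, the smallest to the brightest probe. Probes differ in how well they hybridise, so the order of signals given here is an order of probes and not of transcript numbers. Since the arrays read whole cultures, fewer cells with a transcript and less transcript per cell cannot be told apart. With 1 group there was no comparison to test. Each level is given for control replicate 1 and then replicate 2 (n = 2), in arbitrary units of bead signal, and a gene was called detected when any of its probes had p below 0.05 on both arrays. The labels call the 2 arrays biological replicates, and the spread between them covers these cultures only.

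Of 47323 probes, 15184 were detected on both arrays (32.1%). The median signal was 11.9 on replicate 1 and 10.8 on replicate 2, and 35.9% and 34.8% of probes lay at 0 or below. The lowest signal called detected was 38.5 and 31.7, and the highest signal of any probe was 37547 and 35412. A symbol was known for 30113 probes, which stood for 20046 genes, and 9531 of these genes were detected (47.5%). When the probe of median signal decided in place of any probe, 7538 were detected (37.6%). For an even number of probes this was the dimmer of the middle pair, and so the dimmer probe of a gene with 2. Counts of detected list and family members below are to be read against the 47.5%, or the 37.6% where the probe of median signal decided. The median over all genes was a signal of 34.85 and that over detected genes 276.2. Transcript signal was unevenly spread: the 10 brightest probes held 2.21% of the summed signal above 0, the 100 brightest 16.6% (16.7% and 16.4% on the 2 arrays) and the 1000 brightest 57.8%. At the border of detection stood OR51B5 and CCN4, detected at signals of 38.8 and 32.1 for the first and 39.2 and 31.7 for the second, with GTSF1, SNORD94 and C10orf55 close by. The undetected genes of highest mean signal were GAL (38 and 90.1), ENDOV (82.6 and 30.8), MACROD1 (90.2 and 15.3), KAZALD1 (35.4 and 68) and POU2F2 (37.3 and 63.1), each of which passed on 1 array only.

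**Figure D1:**
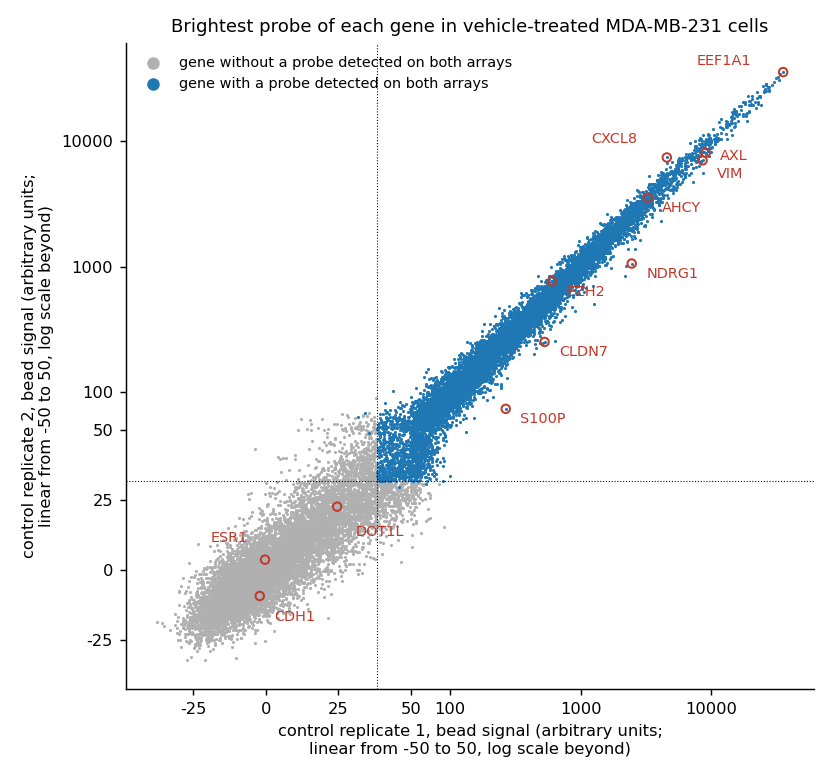
Bead signal of the brightest probe of each gene on control replicate 1 (horizontal axis) and replicate 2 (vertical axis), both linear near 0 and on a log scale beyond. Blue points are genes with a probe detected on both arrays, grey points the others, dotted lines the lowest detected signals of 38.5 and 31.7, and red circles genes named in the text. The arrays lie along a diagonal from CDH1, not detected, to EEF1A1 at 35662 and 35412, and S100P and NDRG1 lie below it.

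Among probes with a gene symbol, many of the brightest belonged to the machinery of protein synthesis. Probes without a symbol are not in this ranking, although 131 of them were above 10000, the brightest at 32322 and 32362. Among the 25 genes of highest signal, 12 coded for cytosolic ribosomal proteins, the structural proteins of the ribosome, and 4 were transcribed pseudogenes. EEF1A1, which codes for the elongation factor that brings aminoacyl-tRNA to the ribosome, was first at 35662 and 35412. RPL41, the gene of the smallest ribosomal protein, followed at 33454 and 34351, and RPS29 was at 32941 and 30641. The ribosomal protein genes RPLP2 (31417 and 31539), RPS16 (27816 and 27154), RPS10 (26302 and 27956), RPS25 (27067 and 26957), RPS19 (27669 and 25494), RPL6 (24928 and 27364), RPL18 (26200.3 and 24969), RPS12 (25331 and 24849), RPS27 (25336 and 24398) and RPS3 (23595 and 22662) were also in this group. Of genes outside translation, TMSB4X, which codes for the actin-sequestering thymosin beta 4, was at 32602 and 32649.6. OAZ1, the gene of the polyamine regulator antizyme, was at 26095 and 25950.4, the ferritin light chain gene FTL at 23238 and 23021, the tubulin gene TUBA1A at 22621 and 24801, and the cytoplasmic actin gene ACTG1 at 23496 and 22235. The pseudogenes RPL13AP5 (27143 and 26748), RPSAP9 (26216 and 28559.8), ANXA2P2 (27691 and 25224) and SLC7A5P2 (27295 and 26238) carry the names of active parent genes, and whether their probes also read the parent transcript was not tested.

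Not every bright probe was matched by the other probes of its gene. Of the 25 brightest genes, 15 had 2 or more probes, and in 7 of them the next probe had under 1% of the signal of the brightest. LAIR1, the gene of an inhibitory receptor of leukocytes, had 1 probe at 30329 and 29553 and another at 24.4 and 22.4, not detected. F2R, which codes for the thrombin receptor PAR1, had 1 probe at 29275 and 27988 and another at a mean of 164.5. CLUAP1, the gene of a protein of ciliary transport, had 1 of 5 probes at 26583 and 28232, and the next had a mean of 149.7. TMSB4X itself had a second probe at 9.8 and -4.1, and the second probe of RPL41 had a mean of 89.75. Over all genes with 2 or more probes, the next probe had under 1% of the brightest in 22 of 75 whose brightest probe was above 10000, and in 124 of 780 whose brightest probe lay between 1000 and 10000. In further genes a very bright probe stood beside 1 or more undetected ones, here the brightest probe against 1 of those undetected: ITIH5 (22806 and 19903 against -2.4 and -5.3, with 4 of 5 probes undetected), the chemokine receptor gene CCR6 (21896 and 18459 against 32.5 and 32.8), the ribosomal protein gene RPL32 (20065 and 19698 against 23.4 and 9.4, with 3 of 4 probes detected), RRP7BP (20139 and 19191 against 17.4 and 29.4), TUBA3FP (18847 and 14447 against -5.5 and -3.6), RPL13AP3 (17461 and 15739 against -2.0 and -2.4) and the splicing gene SNRPD2 (16418 and 16319 against 17.3 and 15.7). Except for RPL32, each of these further genes had 1 detected probe, and the transcripts that these probes bind were not tested.

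**Figure D2:**
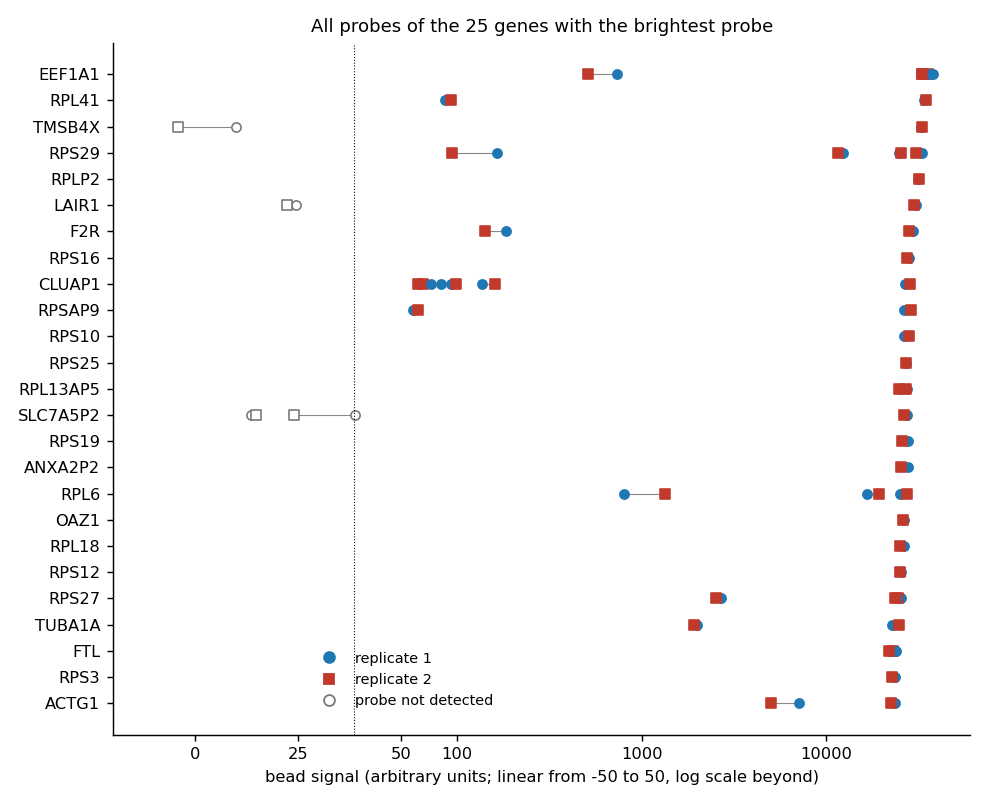
Bead signal of every probe of the 25 genes with the brightest probe (1 row per gene; axis linear near 0, log scale beyond). Blue circles are control replicate 1, red squares replicate 2, open symbols probes not detected on both arrays, thin lines join the replicates of a probe, and the dotted line is the higher of the lowest detected signals (38.5). TMSB4X, LAIR1 and SLC7A5P2 have a very bright probe and another that was not detected, whereas both probes of FTL lie together at the bright end.

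Cytosolic ribosomal proteins were the brightest of the gene lists examined. Of 69 measured genes 68 were detected, with a median signal of 10084.5, and 35 were above 10000. All 26 measured genes of the small subunit and 42 of 43 of the large subunit were detected. The exception was RPL10, at 9.8 and -4.3 for the brighter of its 2 probes, although its protein is part of every functional ribosome. RPL37 was dimmest of those detected, at 106 and 75.1. The list thus reached from the top of the array to its background, and a gene that is not detected here may still be transcribed. The translation factors, which start and elongate protein chains, were detected in 31 of 33 genes with a median signal of 4032. TPT1, the gene of translationally controlled tumour protein, was at 19520.4 and 19388, the helicase gene EIF4A1 at 14464 and 16944, and EIF3E of the eIF3 complex at 11709 and 12929. The 2 genes not detected were EIF3C (23.3 and 20.4) and EIF4E, the gene of the cap-binding protein, whose 5 probes were all undetected (brightest 14 and 15.9). Mitochondrial ribosomal proteins were detected in 78 of 80 genes, led by MRPS12 (4406 and 5004) and MRPL33 (4551 and 4646), with a median signal of 903.8.

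The transcripts of ribosomal proteins are known for a 5′ terminal oligopyrimidine tract, a C at the first base followed by pyrimidines, through which their translation is controlled. Promoter sequences of RefSeq (GRCh38.p14) were therefore set beside the signals. The windows below run from 30 bases before the start of transcription to 15 after it, on the strand of the gene, 5′ to 3′. Capitals mark a run of C and T that begins with C at the first transcribed base and is at least 5 bases long, or the string TATAA upstream of that base. A window without capitals has neither. The OAZ1 window holds TATAA after its annotated start, where it is not marked. They are shown for the 6 brightest ribosomal protein genes, for EEF1A1 and TPT1, and, as bright genes of other kinds, for TMSB4X, FTL, OAZ1, GAPDH, CD44 and VIM. In GRCh38.p14 they lie at chr12:56116603-56116647 (plus strand) for RPL41, chr14:49598696-49598740 (minus strand) for RPS29, chr11:809937-809981 (plus strand) for RPLP2, chr19:39435935-39435979 (minus strand) for RPS16, chr6:34426055-34426099 (minus strand) for RPS10 and chr11:119018329-119018373 (minus strand) for RPS25. Those of the other translation genes are at chr6:73521018-73521062 (minus strand) for EEF1A1 and chr13:45341169-45341213 (minus strand) for TPT1, and those of the remaining genes at chrX:12975080-12975124 (plus strand) for TMSB4X, chr19:48965279-48965323 (plus strand) for FTL, chr19:2269456-2269500 (plus strand) for OAZ1, chr12:6535234-6535278 (plus strand) for GAPDH, chr11:35139141-35139185 (plus strand) for CD44 and chr10:17228211-17228255 (plus strand) for VIM.
RPL41: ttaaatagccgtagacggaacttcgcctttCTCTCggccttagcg
RPS29: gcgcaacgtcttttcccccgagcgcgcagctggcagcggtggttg
RPLP2: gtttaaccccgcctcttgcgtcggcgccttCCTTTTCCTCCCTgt
RPS16: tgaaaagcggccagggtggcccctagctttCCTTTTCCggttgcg
RPS10: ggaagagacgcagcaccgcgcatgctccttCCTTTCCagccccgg
RPS25: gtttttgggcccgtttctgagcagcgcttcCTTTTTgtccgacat
EEF1A1: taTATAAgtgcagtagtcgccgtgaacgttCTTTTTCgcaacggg
TPT1: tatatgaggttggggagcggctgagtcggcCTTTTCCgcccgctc
TMSB4X: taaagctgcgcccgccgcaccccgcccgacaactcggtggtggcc
FTL: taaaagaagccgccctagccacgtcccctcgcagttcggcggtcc
OAZ1: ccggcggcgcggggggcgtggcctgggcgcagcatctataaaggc
GAPDH: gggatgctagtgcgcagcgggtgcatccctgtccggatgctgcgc
CD44: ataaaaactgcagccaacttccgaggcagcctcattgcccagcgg
VIM: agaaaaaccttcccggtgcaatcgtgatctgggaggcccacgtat
Of the 6 ribosomal protein genes, 5 began with the tract, between 5 bases in RPL41 and 13 in RPLP2, and RPS29 did not. EEF1A1 had both the tract and TATAA, TPT1 the tract alone. None of TMSB4X, FTL, OAZ1, GAPDH, CD44 and VIM began with it. Of all 51 ribosomal protein genes with 1 listed promoter, 39 began with C and at least 4 more pyrimidines (76.5%), against 4.61% of 11112 genes on the array with 1 listed promoter and 4.08% of all 34961 promoters in the table. The 39 genes had a median signal of 10253 and the 12 without it 10171, so that within the ribosome the signals with and without the tract were close. Translation factors had it in 7 of 19 genes, oxidative phosphorylation in 6 of 36, mitochondrial ribosomal proteins in 4 of 59, and the proteasome and glycolysis in 0 of 23 and 0 of 17. A match is only a string of letters at an annotated start, and no use of that start was measured.

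Promoter composition differed between genes that were and were not detected. The ratio of observed to expected CpG dinucleotides, which is high in the CpG islands that lie at the promoters of widely used genes, was computed over 300 bases. Its median was 0.518 in 5577 genes that were not detected and 0.813, 0.868, 0.875 and 0.885 in the detected genes, divided by signal into 4 classes of equal size from the lowest to the highest. Thus the step lay between genes not detected and the dimmest detected class, and the classes above differed little. A ratio above 0.6 was found in 46.0% of the genes not detected and in 76.3%, 89.1%, 92.3% and 93.1% of the 4 classes. The string TATAA, starting 20 to 40 bases upstream on the strand of the gene, was in 9.66% of the genes not detected, 4.34%, 2.31%, 2.31% and 5.13% of the 4 classes and 11 of the 60 genes with 1 promoter among the 100 brightest. It was in 6.61% of all 11112 genes with 1 promoter and in 3.91% of all promoters of the table. Against the 6.61%, TATAA was more frequent in the genes not detected and among the 100 brightest. It was less frequent in each of the 4 detected classes. The pyrimidine tract was in 3.23% of genes not detected, 4.12%, 5.56% and 4.92% of the lower classes and 9.39% of the highest. Olfactory receptor genes had a median CpG ratio of 0.120, and keratin-associated protein genes, of which 39 of 67 carried TATAA, one of 0.183. Genes are not replicates, and these shares are descriptions with no test. Among genes with 1 promoter, the median length of the gene in the genome was 16531 bases in those not detected, 26468, 28609, 28685 and 17851 in the 4 classes from the lowest signal up, and 4887 in the 100 brightest.

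**Figure D3:**
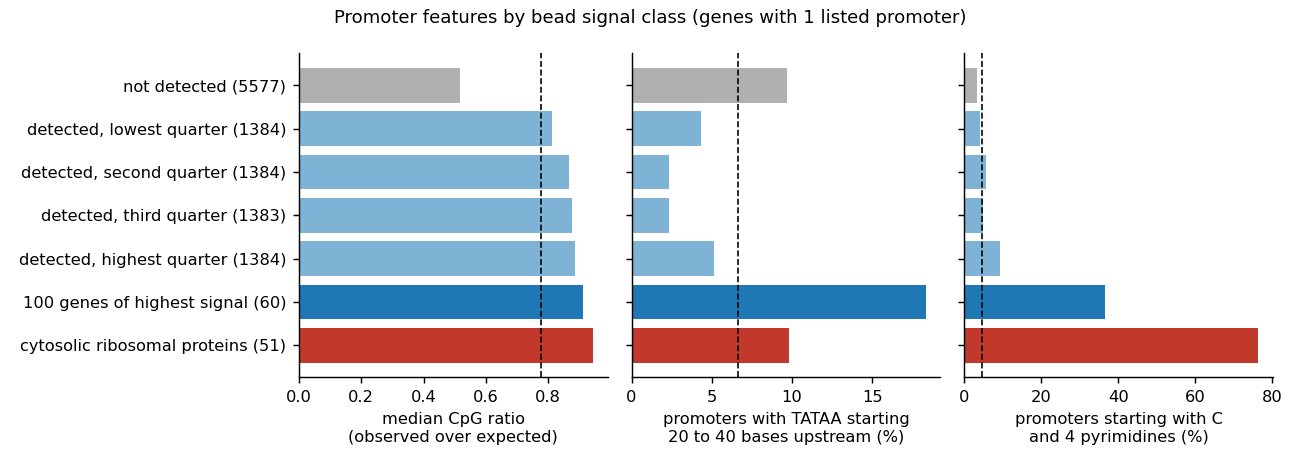
Promoter features by class of bead signal, for genes with 1 listed promoter (number of genes in brackets): the median ratio of observed to expected CpG, the share with TATAA starting 20 to 40 bases upstream, and the share that begin with C and 4 further pyrimidines. Bars start at 0 and the dashed lines give the value over all 11112 genes. The CpG ratio steps from 0.518 to 0.813 where detection begins, and the tract reaches 76.5% in ribosomal protein genes.

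Energy metabolism and protein turnover were also bright, and of the cytoskeleton single genes were. The genes of oxidative phosphorylation, the respiratory chain and ATP synthase of mitochondria, were detected in 53 of 57 with a median signal of 2987. ATP5F1B, the catalytic beta subunit of ATP synthase, was at 16444 and 19169, and it was followed by COX7C of complex IV (11050.0 and 11315), UQCRQ of complex III (9714 and 11199.5) and COX4I1 of complex IV (9732 and 10220.4). All 15 measured ATP synthase genes were detected. Of complex IV, COX6A2 (-1.8 and 3.1), COX4I2 (-8.2 and -8.8) and COX7A1 (-19.9 and -17.2) were not, which are the forms known from muscle or lung, whereas their widely used counterparts COX6A1 (2364 and 2483) and COX7A2 (9713 and 9367) were. Of complex I, only NDUFC2 was not detected (38.4 and 25.8).

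Glycolysis and lactate genes were detected in 20 of 28, with a median signal of 956. ENO1, the gene of enolase, was at 19569 and 17498, LDHA, which makes lactate, at 15879 and 15687, GAPDH at 12310.1 and 12577, and the phosphofructokinase gene PFKP at 5735 and 4578. The glucose carrier genes SLC2A1 (2299 and 2009) and SLC2A3 (1067 and 635) were detected, while SLC2A2 (-23.6 and -12), known from liver, and SLC2A4 (11.6 and 10.1), known from muscle and fat, were not. The isoform genes of testis, liver and muscle (LDHC, PGK2, GAPDHS, PKLR, PGAM2) and HK3, known from leukocytes, were likewise not detected, with signals up to 38.6. PFKP, HK1 and ALDOA each also had undetected probes.

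The proteasome, which degrades proteins tagged with ubiquitin, was detected in 30 of 32 genes with a median signal of 2415, from PSMA6 (8407 and 9542), PSMC1 (8099.7 and 9400.4), PSMB6 (7143 and 7844) and PSMB7 (6850.3 and 7454) downwards. The genes not detected were PSMA8 (-15.6 and -11.4) and PSMB11 (1.8 and -1.1), whose proteins are known from testis and thymus. The catalytic genes of the immunoproteasome PSMB8 (931 and 853), PSMB9 (241 and 184) and PSMB10 (2272 and 2029) were detected. Of the chaperones, which fold proteins, 26 of 39 were detected. HSPA8 was at 13932 and 13756, HSP90AA1 at 11808 and 15097, HSPD1 at 5032 and 6788 and DNAJA1 at 5266 and 5954, while 7 of 9 small heat shock proteins were not detected, CRYAB among them (-10 and -7.7). Of actins, tubulins and actin binders 18 of 30 were detected, with a median signal of 187.5. Besides TMSB4X, TUBA1A and ACTG1 the cytoplasmic actin gene ACTB was at 20709.6 and 22767, and of the muscle actin genes ACTA2 of smooth muscle was detected at a low signal (65.6 and 58.5), while ACTA1 (-8 and -12), ACTC1 (-5.7 and 6.8) and ACTG2 (-13.3 and -0.2) were not detected. All 15 reference genes that were measured were detected, but over a wide span, from ACTB, GAPDH, YWHAZ (9651 and 9936) and RPL13A (7668 and 7592) down to PPIA (146 and 77.7) and ALAS1 (73.9 and 81.4).

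**Figure D4:**
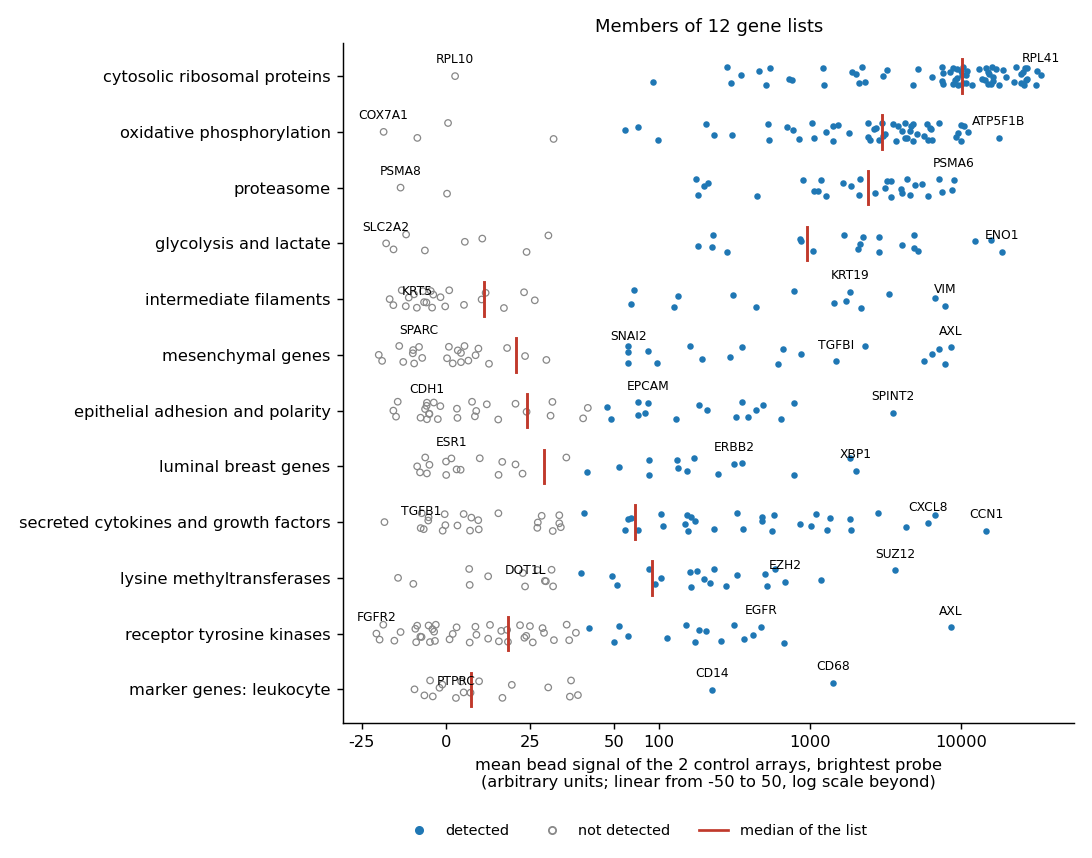
Mean bead signal of the 2 control arrays for the brightest probe of each member of 12 gene lists (axis linear near 0, log scale beyond). Filled points are genes detected on both arrays, open points genes not detected, red lines the median of a list, and vertical scatter within a row has no meaning. Ribosomal proteins have a median of 10084.5, while the intermediate filament, mesenchymal, epithelial and luminal lists each hold bright and undetected members.

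The intermediate filament genes gave a mixed picture. VIM, the filament of mesenchymal cells, was at 8607 and 7018, and the lamin genes LMNA (6994 and 6513) and LMNB2 (3063 and 3579) came next. Of 6 keratins listed here under simple epithelia 5 were detected, namely KRT80 (2385 and 1972), KRT19 (2305 and 1379), KRT7 (1586 and 1278), KRT8 (809 and 766) and KRT18 (139.8 and 129). The place of KRT80 in that group is uncertain. Of 15 keratins of stratified epithelia only KRT10 (1601 and 1833) and KRT15 (72.2 and 64.2) were, and the basal keratins KRT5 and KRT14 had signals below 0. Thus vimentin and simple keratins were detected together. Of 2 muscle filaments SYNM was detected (457 and 418) and DES was not (-7.4 and -18.9). Of 7 glial and neuronal filaments NES, the gene of nestin, was detected (139 and 113), and GFAP (9.5 and 14.2) and NEFL (11.8 and -1) were among the 6 that were not.

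The list of epithelial adhesion and polarity genes holds junction genes but also regulators and genes of proteases and trafficking. Of its 43 measured genes 17 were detected (39.5%, against 47.5% of all genes), with a median signal of 24.05. CDH1, the gene of E-cadherin, was at -2.1 and -9.4, below the background of both arrays. Of 9 regulators of the epithelial state, EHF (525 and 444) and ELF3 (65.5 and 33.2) were detected, and GRHL2 (-12.3 and 1), ESRP1 (-4.5 and -10.6), ESRP2 (-15.6 and -15.7), OVOL1 (-14.6 and -14.1) and OVOL2 (-15.9 and -13.8) were not. Of desmosome genes 7 of 11 were detected, of tight junction genes 4 of 11 and of adherens junction genes 2 of 4. Of the members listed under proteases and trafficking 2 of 8 were. The low share of the list thus lay in its regulators, its protease and trafficking genes and its tight junction genes, and not in the desmosome genes. SPINT2, which codes for a protease inhibitor, led the list at 4012 and 3098, followed by the desmosome gene DSG2 (850.4 and 704) and the tight junction gene CLDN1 (601 and 685). EPCAM (89 and 80.1) and CLDN3 (83 and 78.3) were dim, CLDN7 was at 529 and 252, and CLDN4 was not detected (7.4 and 10.7). The 2 replicates of CLDN7 did not stand at the same level.

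Mesenchymal genes were detected in 19 of 42 (45.2%, against 47.5% of all genes). AXL, which codes for a receptor tyrosine kinase, was at 9071 and 8053, CD44, the hyaluronan receptor used as a marker of stem-like breast cancer cells, at 7072 and 7101, the caveolin gene CAV1 at 6465 and 6379, S100A4 at 6269.8 and 5169 and the ectonucleotidase gene NT5E at 2740.1 and 1881. The bright members were thus genes of the cell surface and cytoskeleton, of which 9 of 14 were detected. Of 10 transcription factors of the epithelial to mesenchymal transition only SNAI2 (68.4 and 56.8) and PRRX1 (70.1 and 54.1) were detected. SNAI1 (-22.7 and -17.3), TWIST1 (9 and 2.1), ZEB1 (21.9 and -4.2) and ZEB2 (3.8 and 5.2) were not. Of the matrix genes 7 of 15 were detected, led by TGFBI (1609 and 1357) and TNC (726 and 597), while FN1 (33.2 and 26.7), SPARC (-8.8 and -7.2) and the fibrillar collagen genes COL1A1 (4.1 and 4.9) and COL3A1 (-16.4 and -2.5) were not. N-cadherin (CDH2) was not detected either (14.3 and 11.4). Of the markers taken to define a mesenchymal breast line, VIM, CD44, AXL, CAV1, S100A4 and SNAI2 were detected, and ZEB1, FN1 and SPARC were not. Of the epithelial markers, CDH1 (E-cadherin), CLDN4, ESRP1 and GRHL2 were not detected, and EPCAM, CLDN3 and CLDN7 were.

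Luminal breast genes were detected in 14 of 30. ESR1 (-0.3 and 3.6) and PGR (15.7 and 4.5), the estrogen and progesterone receptor genes, were not detected, nor were the luminal factors GATA3 (16.4 and 25.1) and FOXA1 (-10.5 and -1.8) or the estrogen target TFF1 (-6.5 and -8.9). ERBB2 was detected at 281 and 349 by 1 of 3 probes, and ERBB3 at 56.7 and 52.4 by 1 of 3. The brightest luminal genes were XBP1 (1883 and 2116), a factor of the secretory pathway, KRT19, KRT8 and MUC1 (429 and 279). CD24, a surface protein used to mark luminal cells, was at 81.6 and 90 by 1 of 2 probes, and the other had a mean of -3.5. Of basal and myoepithelial genes 11 of 23 were detected, CAV1, the laminin gene LAMB3 (2392 and 2043, 1 of 3 probes), EGFR (453 and 497) and ITGB4 (516 and 247) at the top, while KRT5, KRT14 and CDH3 (1.2 and -6) were not. The shares of the luminal, basal and mesenchymal lists lay close to the 47.5% of all genes, and by the probe of median signal 9 luminal and 7 basal genes were detected.

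Among receptor tyrosine kinases 16 of 55 were detected (29.1%, against 47.5% of all genes), and 9 when the probe of median signal decided (37.6% of all genes), EGFR not among them. AXL stood alone above 1000, and RYK (653 and 697), EGFR and MET (419.9 and 420.2) came next. All 3 genes of the TAM family were detected, with MERTK at 262 and 250.2 and TYRO3 at 184 and 182. All 4 FGF receptor genes, all 3 VEGF receptor genes, all 3 genes of the insulin receptor family and all 5 of the PDGF and CSF receptor family were not detected. Of 40 nuclear receptors 16 were detected, RXRA (1248 and 1102), PPARG (1131 and 1023, with 2 of 4 probes detected), RXRB (987 and 885) and RARA (739 and 543) first. The glucocorticoid receptor gene NR3C1 was at 35.6 and 49, near the limit of detection.

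Chromatin regulators were dimmer than the housekeeping lists. Of 32 histone lysine methyltransferase genes and cofactors 20 were detected (62.5%, against 47.5% of all genes), with a median signal of 89.7. SUZ12, a subunit of the complex that methylates H3 lysine 27, was at 3425 and 3872, SUV39H1, which methylates lysine 9, at 1053 and 1311, EZH2, the catalytic subunit with SUZ12, at 602 and 767 and SETD2, which methylates lysine 36, at 543 and 629.8. DOT1L, the enzyme of lysine 79 and the target of the compounds in the study, had 1 probe, at 24.6 and 22.6, which was not detected on either array. A single undetected probe does not show that the transcript was absent. The paper counts this line among those with relatively high DOT1L, by values from a public expression database. The demethylases were detected in 12 of 18 genes (66.7%), led by KDM2B (936 and 942), KDM1A (649.9 and 849), JMJD1C (680.1 and 678) and KDM2A (549 and 519).

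Methyltransferases use S-adenosylmethionine and release S-adenosylhomocysteine, which AHCY hydrolyses. AHCY was at 3274 and 3545, MAT2A, which makes S-adenosylmethionine outside the liver, at 3789 and 3661, and the spermine synthase gene SMS at 4026 and 4633. MAT2B, the regulatory partner of MAT2A, was at 1611 and 1531, and 16 of 22 genes of this cycle were detected. The liver form MAT1A (-20.3 and -26.2), CBS (-8.9 and -13.4) and MTAP (-12 and 2.7) were not. For DNA methylation, the maintenance enzyme gene DNMT1 was at 8395 and 10386 and its partner UHRF1 at 1603 and 2079.5, and the de novo enzyme genes DNMT3B (172 and 186) and DNMT3A (45.9 and 47.6) and the methyl-CpG binding genes MBD4 (404 and 386) and MBD1 (94.1 and 96.9) were detected. DNMT3L (25.2 and 17), MBD2 (34.5 and 29.5) and the demethylase genes TET1 (7.7 and 8.8) and TET2 (-19.2 and -20.5) were not detected. The homeobox genes of body patterning were mostly at background: 2 of 10 HOXB genes, 2 of 9 HOXC genes and 3 of 9 HOXD genes were detected, HOXD1 (170.0 and 116) brightest, while their cofactors PBX3 (427 and 399.8) and PBX2 (439.7 and 347) led the list, and PBX4 was at 117 and 135. HOXA2, the only HOXA gene analysed here, was not detected (5.4 and 14.3). Of all 35 genes measured in this list, cofactors included, 12 were detected (34.3%, against 47.5% of all genes).

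Growth control genes were detected in 20 of 28 (71.4%, against 47.5% of all genes), and in 13 when the probe of median signal decided. The cyclin genes CCND1 (7624 and 6817) and CCND3 (4016 and 3795) were brightest, then MYC (2356 and 2475) and CDK4 (1849 and 2397). The inhibitor genes CDKN2A (1.3 and -9.3) and CDKN2B (24.7 and 28.4), with 3 probes each, were not detected. Of 11 genes picked along the short arm of chromosome 9, 3 were detected (27.3%, against 47.5% of all genes). The list does not hold every gene of this stretch. In order of position, the 7 listed genes from MLLT3 (11.6 and 23.9) over KLHL9 (32.1 and 23.6), MTAP, CDKN2A, CDKN2B and DMRTA1 (3 and 13.6) to ELAVL2 (-15.1 and -3.9) were undetected. Apart from CDKN2A and CDKN2B, each of these 7 had 1 probe. Next in the list TUSC1 (52.7 and 53.2), PLAA (126 and 148) and IFT74 (165 and 153) were detected, and TEK (12.6 and 12.6), a receptor of endothelial cells, was not. The number of gene copies was not measured.

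Cytokines and growth factors, through which cells signal to their neighbours, were detected in 31 of 54 genes (57.4%, against 47.5% of all genes). CCN1, a matrix-bound growth regulator, was at 14387 and 14983, the interleukin gene IL18 at 7297 and 6082, the chemokine gene CXCL8 at 4578 and 7403 and CCN2 at 3354 and 5285. CXCL8, CCN2, IL6 (2403 and 3259) and HBEGF (1498 and 2182) were higher on replicate 2. IL1B (1434 and 1274), IL1A (1138 and 1051), VEGFA (958 and 756), VEGFC (569 and 553) and IL11 (497 and 464) were detected as well, and the probes of TGFB1 (-1.8 and -13.2), HGF (1.6 and -11.9), CXCL12 (6.3 and -6.6) and CCL2 (-1.3 and 0.6) were not. Of 7 chemokines detected, CXCL8, CXCL1 (459.7 and 699) and CXCL2 (367 and 591) bind the same receptor family. IL10 read 1327 and 1274 on 1 of its 2 probes only.

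Markers of other cell types were near background, read against the 47.5% of all genes. Of leukocyte markers 2 of 19 were detected, CD68 (1481 and 1342), also known as a lysosomal protein, and CD14 (239 and 213), and the pan-leukocyte gene PTPRC was at 5.1 and 0.9. Of endothelial markers 1 of 10 was detected, ROBO4 (166 and 178), with PECAM1 (49.2 and 21), VWF (-9.2 and -8.5), CDH5 (-12.2 and -5.8), ERG (24.5 and 25.7), CLDN5 (-9 and -2.2), KDR (-12.3 and -2.2), EMCN (-12.4 and -12), TIE1 (-18 and -9) and TEK not detected. Erythroid markers were detected in 0 of 9: HBA2 was highest (33 and 33.8), then ALAS2 (15.8 and 22), and HBG2, AHSP, HBB (-1 and 6.8), HBD, HBG1, SLC4A1 and HBA1 (-12.8 and -7.7) were lower. Of 10 fibroblast markers FBLN1 (93.9 and 87.5) and DCN (53.6 and 32.7) were detected, each by 1 probe of several, and COL1A1, COL1A2 (-5.2 and 7), COL3A1, LUM (-9.9 and 2), PDGFRA (2.7 and 1.4), PDGFRB (20.5 and 16), DPT (19.5 and 14.4) and THY1 (-16.4 and -11.4) were not. Adipocyte markers numbered 3 of 8, PPARG, LEP (114 and 74.7) and FABP4 (65 and 55.4), with ADIPOQ (-3.3 and 1.7), PLIN1 (-17.3 and -17.1), LPL (16.9 and 15.3), CIDEA (-8.1 and -6.6) and CIDEC (45.7 and 28.4) not detected. In each of these lists most of the defining genes were not detected, and by the probe of median signal 1 leukocyte, 1 adipocyte and 0 fibroblast markers were.

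In the remaining lists single genes stood out. Of 12 hepatocyte markers ALB alone was detected (98.4 and 107), by 1 of 2 probes. FGB (34.5 and 39.9), FGA (30.5 and 30.5), TTR (25.8 and 17.6), APOA1 (16 and 9.2), APOB, AHSG, APOC3, FGG, SERPINC1, CYP3A4 and APOH (-20.7 and -12.9) were not. Of 12 neuronal markers GAD1 (299 and 419), which codes for the enzyme that makes GABA, and SLC17A7 (44.9 and 45) were detected, and RBFOX3 (20.6 and 21.4), SNAP25 (19.6 and 13.8), STMN2, NEFL, DCX, SYT1, MAPT, SYN1 (-6.6 and 1.1), GRIN1 and ELAVL4 (-9.2 and -11.9) were not. Of 11 muscle markers only MB, which codes for myoglobin, was detected (45.9 and 35.8), by 1 of 4 probes. MYH6 came next (39.9 and 30.9), and TTN, TNNI3, MYH1, MYH2, MYH7, ACTA1, DES, CKM and TNNC2 (-26.4 and -18.3) were lower. Of 7 melanocyte markers MITF (70.4 and 85.4, 1 of 3 probes) and SLC45A2 (47.7 and 43.2, 1 of 4) were detected, with PMEL (7.5 and 12.9), TYRP1, TYR (-0.3 and -9.1), MLANA (-9 and -1.4) and SOX10 at background. Of 8 germ cell markers ZP3 was detected (709.8 and 721, 3 of 4 probes), and TNP1 (27 and 19.2), SYCP3, DDX4 (14.2 and 8.1), PRM1 (-0.2 and -4.7), DAZL, ACR and PRM2 were not. By the probe of median signal 0 hepatocyte, 0 muscle and 0 melanocyte markers were detected, and 2 neuronal and 1 germ cell marker were. Of 28 cancer-testis antigens, genes that some tumours switch on, PAGE5 (103 and 94.8, 2 of 3 probes), PRAME (60.5 and 40.9, 1 of 3) and SSX4 (41.4 and 32.7, 1 of 5) were detected. All 14 MAGE genes were not, and 1 of the 28 was detected when the probe of median signal decided. Genes of the SPANX family, a cancer-testis family outside this list and looked up after their values were seen, were much brighter. SPANXB1 was at 14471 and 13879 by 1 of 3 probes, SPANXA2 at 13249 and 14088, SPANXC at 2996 and 2716 and SPANXD at 2265 and 1565. These are near-identical copies, and which of them a probe reads was not tested.

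**Figure D5:**
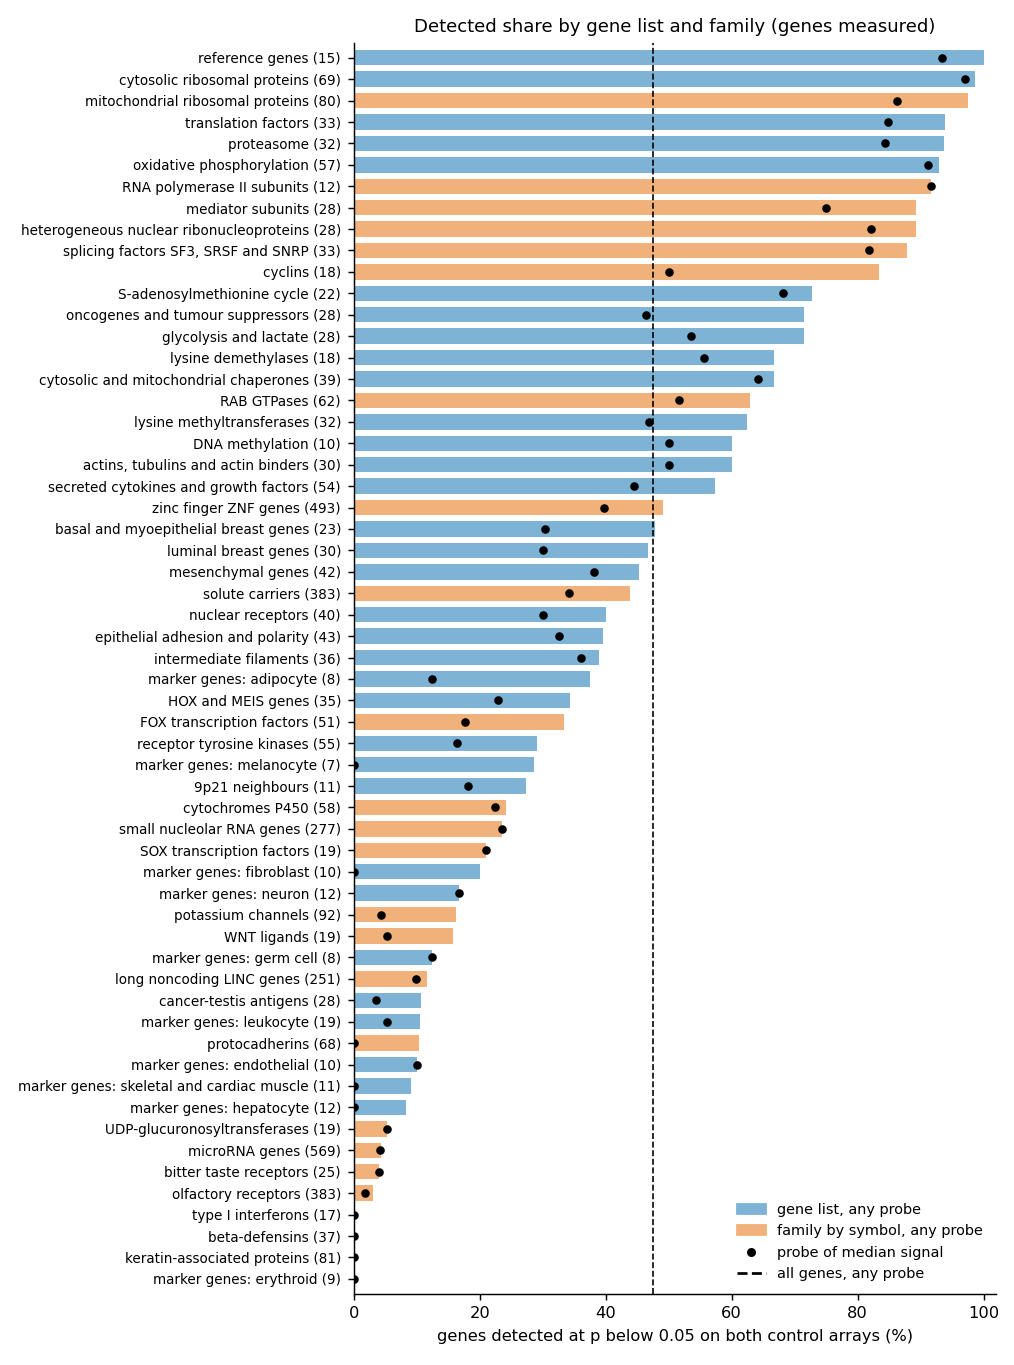
Share of measured genes detected on both control arrays, for 34 gene lists (blue) and 24 families defined by symbol (orange), with the number of genes measured in brackets. Bars count a gene by any probe, black points by its probe of median signal, and the dashed line is the 47.5% of all genes. Shares run from reference genes and ribosomal proteins at the top to keratin-associated proteins, beta-defensins, type I interferons and erythroid markers at 0.

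Gene families ran from nearly complete to undetected. Besides mitochondrial ribosomal proteins, the subunits of RNA polymerase II were detected in 11 of 12 genes (POLR2H 4041 and 4154, POLR2G 2618 and 2906), mediator in 25 of 28 (MED20 1719.6 and 1882, MED16 1728 and 1867), the heterogeneous nuclear ribonucleoproteins in 25 of 28 (HNRNPD 8582 and 9510.3, HNRNPAB 6912 and 9637) and splicing factors in 29 of 33 (SNRPD2 and SNRPG, the latter 8063 and 10108). These are parts of the machinery that makes and processes messenger RNA. At the other end, 12 of 383 olfactory receptors were detected (3.13%), the highest OR9A4 (56.9 and 56.6) and OR7C2 (49.5 and 58.1), both close to the detection limit. None of 81 keratin-associated proteins, 37 beta-defensins and 17 type I interferons was detected, with KRTAP10-3 (26.1 and 39.5), DEFB124 (44.6 and 31.1) and IFNW1 (54.8 and 27.7) as their highest. Of 25 bitter taste receptors TAS2R10 (47.9 and 50.6) was detected and TAS2R3 (25.2 and 25.5) was not. The UDP-glucuronosyltransferases, which conjugate drugs and hormones, had 1 of 19 detected, UGT1A3 (49 and 69.8), with UGT2B7 next (35.3 and 33.6).

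Other families lay between these ends, and the ZNF genes and solute carriers lay close to the 47.5% of all genes. Zinc finger genes named ZNF were detected in 242 of 493 (49.1%), where the 2 brightest, ZNF674 (24137 and 19304) and ZNF430 (5350.1 and 4255), were each read by 1 detected probe. Solute carriers were detected in 168 of 383 (43.9%, with SLC25A5, the mitochondrial ADP carrier, at 14089 and 15564), RAB GTPases, which direct vesicles, in 39 of 62 (RAB10 2797 and 2887, RAB7A 2697 and 2438) and cyclins in 15 of 18. FOX factors were detected in 17 of 51 (FOXA2 2150.2 and 1666, FOXO3 1174 and 1182), SOX factors in 4 of 19 (SOX9 355 and 317, SOX4 148 and 112), WNT ligands in 3 of 19 (WNT5B 277 and 271, WNT7B 192 and 154), cytochromes P450 in 14 of 58 (CYP1B1 1513 and 1495, CYP20A1 283 and 339), potassium channel genes in 15 of 92 (KCNH6 4678 and 4544, KCNIP3 129 and 136) and protocadherins in 7 of 68 (PCDHB9 80.6 and 83.5, PCDH15 72.6 and 39.5). Of these named genes, FOXA2, KCNH6, KCNIP3 and PCDH15 were each detected by 1 of 3 probes, and WNT5B, WNT7B and PCDHB9 by 1 of 2. FOXO3 was detected by 2 of 4 and CYP20A1 by 2 of 3. When the probe of median signal decided, the counts fell to 9 for cyclins, 9 for FOX factors, 1 for WNT ligands, 4 for potassium channels and 0 for protocadherins.

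Noncoding genes were detected less often than protein-coding ones, though single ones were bright. Of genes annotated as protein coding 51.4% were detected, of long noncoding RNAs 16.8%, of small nucleolar RNAs 23.3%, of transcribed pseudogenes 27.1% and of microRNA genes 3.74%. Of transcribed pseudogenes 8 were above a signal of 10000. Of long noncoding RNAs 10 were above 1000, with SNHG32 at 7987 and 7255, and RN7SL1, the RNA of the signal recognition particle, was at 18589.9 and 15812. Among small nucleolar RNA genes SNORA61 (541 and 586) and SNORA67 (459.6 and 537) were brightest. The brightest genes with a microRNA symbol were the host transcripts MIR100HG (718 and 780.3) and MIR503HG (576 and 622), and the brightest LINC genes LINC01018 (868 and 577) and LINC00938 (403 and 377). By chromosome, the detected share ran from 39.8% of genes on X to 52.8% on chromosome 16.

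The 2 control arrays were alike but not equal. Over 12759 probes with a detection p below 0.01 on both arrays, log2 signals correlated at r = 0.991 across probes, which are not independent replicates. After background correction and centring, the median absolute difference was 0.17 log2 and the 95th percentile 0.51. In probes above 10000 these were 0.10 and 0.31, and in probes up to 100 they were 0.19 and 0.54. A difference of more than 1 log2 was seen in 24 probes, 20 of them higher on replicate 1 and 4 on replicate 2. In the log2 table of the authors, which has another background treatment and is centred on all probes, the count was 26, of which 12 were higher on replicate 1 and 14 on replicate 2, and the median over these 12759 probes was shifted towards replicate 2 by 0.13 log2.

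The genes higher on replicate 1 were led by S100P, which codes for a calcium-binding protein (267 and 73.9, a log2 difference of replicate 2 over replicate 1 of -1.65). ALOX5AP, the gene of an activator of leukotriene synthesis, was at 2198 and 850.1 (-1.35), the cysteine protease inhibitor gene CST1 at 1264 and 509 (-1.28) and ASS1, which makes argininosuccinate, at 639 and 257 (-1.26). NDRG1, a gene known to respond to hypoxia, was at 2463 and 1059 (-1.20) and the fatty acid desaturase gene SCD at 2227 and 1011 (-1.12). KLRC2 (151 and 61.9), ABCA3 (214 and 92.5), SEL1L3 (245 and 109) and the cholesterol exporter gene ABCA1 (440.0 and 203) completed the 10, with differences between -1.10 and -1.06. In all of these replicate 1 was at least 2-fold above replicate 2. The genes higher on replicate 2 differed less. SFXN2 was at 67.8 and 154 (1.04), CPED1 at 65.1 and 146 (1.01), the RNase P RNA gene RPPH1 at 238 and 473 (0.96), the cystathionine lyase gene CTH at 475 and 849.5 (0.83) and the splicing factor gene SRSF3 at 347 and 619 (0.81). SNORD96A, TOR3A, TIPIN, EXO1 and RBM28 lay between 0.89 and 0.78.

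Some lists leaned to 1 array. Of genes above a signal of 100, 3934 of 7142 were higher on replicate 2, with a median difference of 0.03 log2. Proteasome genes were higher on replicate 2 in 25 of 30 (median 0.23) and chaperones in 18 of 23 (median 0.21). Glycolysis genes were higher on replicate 2 in only 3 of 20 (median -0.11), mesenchymal genes in 2 of 14 (median -0.20) and nuclear receptors in 1 of 10 (median -0.16). Ribosomal proteins had 35 of 67 higher on replicate 2 and a median of 0.01. In the log2 table of the authors, where 5277 of the 7142 genes were higher on replicate 2 with a median of 0.16, the proteasome (median 0.36) and chaperones (0.35) lay above that median and mesenchymal genes (-0.07), nuclear receptors (-0.03) and glycolysis (0.02, and so with the sign turned) below it, while ribosomal proteins had 62 of 67 higher on replicate 2. With 1 array on each side these counts have no test.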

How the data were processed

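RNA of the cultures was isolated, amplified and hybridised to Illumina HumanHT-12 v4 arrays. Per the labels and the methods, the authors exported the deposited intensity values from BeadStudio (version not given in the sources used here), with background subtracted and no normalization between arrays. The detection p-value of each probe was deposited with them, in another order of lines than the signals (rank correlation line by line -0.0030 and -0.0025). It was therefore given to the probes by rank, the smallest p to the brightest probe of the array. The log2 table that the authors deposited equals the log2 of signals raised to at least 1, minus the array median (largest deviation 5.0e-09).

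One line with no probe name was left out. Genes were named through the platform annotation, by which 30113 probes had 1 symbol, 8 several and 17202 none, and updating symbols through Entrez numbers changed 0. A gene's level was that of its probe with the highest mean of the 2 arrays. Differences between the arrays were taken as log2 after normexp background correction with an offset of 16 (limma 3.58.1 in R 4.3.3) and centring. Promoters came from the RefSeq table for GRCh38.p14, by symbol, for 14969 of 19952 genes, of which 11112 had exactly 1. Other steps ran in Python 3.11.15 with numpy 2.4.6, pandas 2.3.3 and scipy 1.17.1. The number of arrays limits the precision, and no test was made because there is 1 group.

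Genes were named as the 25 brightest, the 10 with most unlike probes, the 5 detected genes of lowest and the 5 undetected genes of highest mean signal, the 4 brightest detected members of each list, every member of lists of up to 12, a few defining genes whatever their level (not all are reported here), the 2 brightest of each family, and the 10 that differed most between the arrays in each direction. The lists and the genes were chosen with earlier results of these data known, and further list members were named after their values were seen.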

Additional observations from a re-analysis of the deposited data

Results flagged for a closer look

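Probes without a gene symbol carried signal that no list covers. Of 17202 such probes, 3172 were detected on both control arrays (18.4%), against 39.9% of probes with 1 symbol. Their median signal when detected was 103.9, against 235.4 for named probes, yet 558 were above 1000 and 131 above 10000, the brightest at 32322 and 32362. They held 28.9% and 28.4% of the summed signal above 0 on the 2 arrays. What they bind was not tested.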

How the results depend on the processing

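No paired analysis was possible because the 2 arrays form 1 group. Of all probes 12759 to 17364 were detected under the other detection rules, and of genes 7000, where every probe had to pass, to 10483. From replicate 1 or 2 alone the counts ran from 16074 to 16474 probes and from 9938 to 10090 genes. Between 14 and 17 of 34 lists (15 in the report) had a higher detected share than all genes, and the luminal, mesenchymal, basal and adipocyte lists changed sides. The 100 brightest probes held 15.5% of the signal after normexp correction with an offset of 16 and 16.8% over detected probes only, and 16.4% to 16.7% on a single array. With the probe of median signal 15 of the 25 brightest genes remained, and 23 to 24 on a single array. An offset of 50 left 9 of the 24 probes that differed by more than 1 log2. The ratio of the median CpG ratio of undetected genes to that of the highest signal class was 0.586 and became 0.708 by the probe of median signal, a choice made after seeing the data. Under these alternatives 29 of 170 list counts and 30 of 120 family counts moved by over 1.5 times, the olfactory receptors from 12 to 1 at p below 0.01. Signals near background limit what can be called, and features of proteins were not run.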

Other observations

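With the probe of median signal in place of the brightest, 10 genes entered the 25 of highest signal: RPL27A, RPL13AP20, ZNF674, H4C3, MT2A, ENO1, MYL6, ATP5F1B, RN7SL1 and TUBA1B. H4C3 codes for a replication-dependent histone H4, MT2A for a metallothionein that binds zinc, and MYL6 for a light chain of nonmuscle myosin. Of 6691 genes with 2 or more probes, 1374 had every probe detected and 2531 had detected and undetected probes together. Between the arrays, 890 probes were detected on replicate 1 only and 1290 on replicate 2 only.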
